A study of Homo sapiens with 9 samples.

Results

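The genes described here make, limit and turn over the polyamines in human mammary epithelial cells. They are ODC1, AMD1, SRM and SMS, which code for enzymes of synthesis, SAT1, which codes for the enzyme that starts breakdown, and OAZ1, OAZ2 and AZIN1, which code for the antizymes and the antizyme inhibitor. These 8 genes were chosen by symbol from the 25801 genes in the deposited table, and each of them was found. The table came from a SLAM-Seq experiment in MCF10A cells, an immortalised but not transformed epithelial line from human breast. In these cells JUN had been knocked out and replaced by JUN-AID-V5, a JUN protein with a tag that leads to its degradation in the presence of indole-3-acetic acid (IAA) and of the plant receptor TIR1, which the cells also expressed. All groups carried this knockout and this replacement. JUN-AID-V5 came from a lentiviral vector with the EF1a promoter, so no group made intact JUN protein from the gene's own promoter. Cells of the first group received no 4-thiouridine (4sU), and the labels do not state their solvent. Cells of the second group received DMSO before a pulse of 1 h with 4sU at 100 µM. Cells of the third group received IAA, also at 100 µM, 1 h before the same pulse. The labels give 3 replicates per group, and the paper describes its replicates as biological. The 3 deposited IAA columns were identical in every row, whereas the DMSO columns differed in 35279 of 56868 rows. IAA was for this reason taken as a single library, and values for it have no replicate check.

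Putrescine, spermidine and spermine are small cations that bind RNA, DNA and ribosomes, and growing epithelial cells keep up a steady supply of them. Ornithine decarboxylase (ODC1) makes putrescine, and S-adenosylmethionine decarboxylase (AMD1) makes the donor of aminopropyl groups. Spermidine synthase (SRM) adds such a group to putrescine, and spermine synthase (SMS) adds one to spermidine. When polyamines are plentiful, ribosomes shift frame on the antizyme mRNAs, antizyme carries ODC1 to the proteasome, and the antizyme inhibitor AZIN1, an ODC1 relative without activity, binds antizyme and spares ODC1.

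4sU enters RNA made during the pulse and is read as C after alkylation with iodoacetamide. The T>C conversion rate is the percentage of T positions in a 3′ interval of a transcript that were read as C, and it was deposited without subtraction of the background. The abundance is the number of reads in the interval scaled to the library total, labelled CPM by the authors. ODC1 (NM_002539 and 3 further RefSeq transcripts, chr2:10580094-10588453 in GRCh37, minus strand) was read over an interval of 356 bases. The intervals were 383 bases for OAZ1 (NM_004152, chromosome 19), 1133 for OAZ2 (NM_002537, chromosome 15), 276 for SRM (NM_003132, chromosome 1) and 489 for SMS (NM_004595, chromosome X). AZIN1 (NM_015878) had intervals of 2268 and 2275 bases, AMD1 (NM_001634, chromosome 6) of 2099 and 2237 bases, and SAT1 (NM_002970, chromosome X) of 370 and 538 bases. For these 3 genes the rates are the mean of both intervals and the abundance is that of the interval with most reads. AMD1, ODC1 and SMS have pseudogene copies in the genome, and how reads matching several places were counted is not given in the sources used here. OAZ2 had the fewest reads, 417 to 708 per library, and OAZ1 the most, 7671 to 13419.

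The start regions were searched on both strands for the E-box CACGTG, which MYC and its relatives bind, for the TATA element TATAA and for the AP-1 motif TGANTCA, which JUN and FOS dimers bind. The RefSeq windows of GRCh38.p14 run from 250 bases before to 50 bases after a start site. There were 10 windows for 7 of the genes, and AZIN1 had none. CACGTG was in 2 of the 10 windows, those of ODC1 and SRM, and in 7.26% of all 35116 windows. TATAA was in 4 of the 10 windows (of ODC1, OAZ1 and AMD1) and in 20.4% of all. TGANTCA was in 1 of the 10, that of OAZ2, and in 7.71% of all. These matches are letters in a window and not measured sites. The OAZ2 stretch is shown because JUN was the depleted factor, those of ODC1 and SRM because both genes have E-boxes, with the TATAA region of ODC1 beside them, and that of AMD1 because it had the highest conversion rate of the 8 genes. Capitals mark the motifs.
OAZ2 (chr15:64703496-64703531, minus strand, AP-1 motif from position −241): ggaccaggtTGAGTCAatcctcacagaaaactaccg
ODC1 E-boxes (chr2:10447994-10448049, minus strand): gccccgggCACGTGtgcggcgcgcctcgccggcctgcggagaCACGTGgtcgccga
ODC1 upstream (chr2:10448328-10448577, minus strand): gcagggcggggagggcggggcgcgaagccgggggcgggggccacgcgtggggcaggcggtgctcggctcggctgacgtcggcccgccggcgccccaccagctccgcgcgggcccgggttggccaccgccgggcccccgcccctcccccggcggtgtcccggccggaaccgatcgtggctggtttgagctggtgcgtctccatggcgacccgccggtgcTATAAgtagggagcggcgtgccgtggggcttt
SRM upstream (chr1:11060019-11060268, minus strand): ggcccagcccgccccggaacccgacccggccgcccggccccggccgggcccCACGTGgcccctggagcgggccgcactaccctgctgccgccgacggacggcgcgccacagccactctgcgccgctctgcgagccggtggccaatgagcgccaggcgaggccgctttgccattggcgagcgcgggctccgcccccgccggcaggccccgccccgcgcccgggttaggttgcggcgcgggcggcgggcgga
AMD1 upstream (chr6:110874535-110874784, plus strand): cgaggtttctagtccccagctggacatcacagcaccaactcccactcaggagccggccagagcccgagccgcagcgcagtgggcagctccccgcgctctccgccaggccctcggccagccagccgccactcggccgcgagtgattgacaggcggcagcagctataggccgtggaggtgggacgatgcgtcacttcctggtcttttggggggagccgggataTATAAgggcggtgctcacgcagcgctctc

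ODC1 has start sites 315 bases apart in RefSeq, and its E-boxes lie 286 and 320 bases downstream of the upstream one, 34 bases from each other. The first exon of the transcript from the upstream start site is 207 bases long, so both E-boxes lie in its first intron. Counted from the start site, which is preceded by position −1, the TATAA of ODC1 begins at −32 of the upstream start site and that of AMD1 at −29. The E-box of SRM begins at −199.

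The libraries held 18997637 to 24014195 reads. The basal mammary markers KRT5, KRT14, KRT17, TP63, LAMB3, ITGB4 and CDH1 were each at 1 CPM or more in every library. KRT5, a keratin of basal epithelium, was at 519 to 679 CPM without 4sU, at 611 to 709 with DMSO and at 641 with IAA. Luminal hormone-sensing markers were read as well: of 5, GATA3, KRT8 and KRT18 had a mean of 1 CPM or more, and ESR1 and PGR did not. These 5 summed to 107 to 121 CPM without 4sU, 119 to 149 with DMSO and 139 with IAA. Of 4 fibroblast markers COL1A2 was at 0 in every library and the summed level was 3.69 to 5.41 CPM without 4sU, 3.66 to 6.06 with DMSO and 9.97 with IAA, most of it COL1A1. Of 3 endothelial markers CDH5 and VWF were at 0 and PECAM1 was at 0.179 to 1.08 CPM. Of 3 leukocyte markers PTPRC and CD3E were at 0 and CD14 was at 0.983 to 4.19 CPM. JUN mRNA was at 48.2, 57.6 and 45.0 CPM without 4sU, at 30.2, 20.3 and 25.6 with DMSO and 4sU and at 62.9 with IAA, so the DMSO libraries were the low ones. Between the first 2 groups its log2 difference was −1.003 (SE 0.19, adjusted p = 0.030 in limma). JUN was read over an interval of 1287 bases of its RefSeq transcript. Whether these reads came from the knocked-out gene, in which the paper found frame shifts, or from the vector was not tested. Because the degron acts on the protein, the JUN mRNA values do not check the depletion in either case. In such bulk samples fewer cells with a transcript and less of it per cell cannot be told apart.

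The first comparison, of labelled with unlabelled cells, showed how far the T>C conversions of each mRNA rose above background with the 1 h pulse. The rate depends on how much 4sU is built in, and is not the share of the mRNA made in the pulse. AMD1 had the highest rate, at 0.550% ± 0.107 (SD, n = 3) with DMSO and 4sU against 0.102% ± 0.0122 (SD, n = 3) without 4sU, a 5.38-fold difference. SAT1, SRM, ODC1 and SMS also rose, by 3.53-, 3.19-, 2.52- and 2.18-fold. OAZ1, OAZ2 and AZIN1, the regulators of ODC1, had the smallest differences, 1.51-, 1.46- and 1.64-fold, and none of them passed the test. Thus 5 of 8 genes passed in limma and all 5 were higher with 4sU, where 61.5% of 7170 genes tested were higher and 0.0837% lower. The median log2 difference of the 8 genes was 0.79, and that of all genes tested was 1.15. In each of the 8 genes the 3 labelled rates were above the 3 unlabelled ones, which was so in 71.1% of all genes tested.

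**Figure D1:**
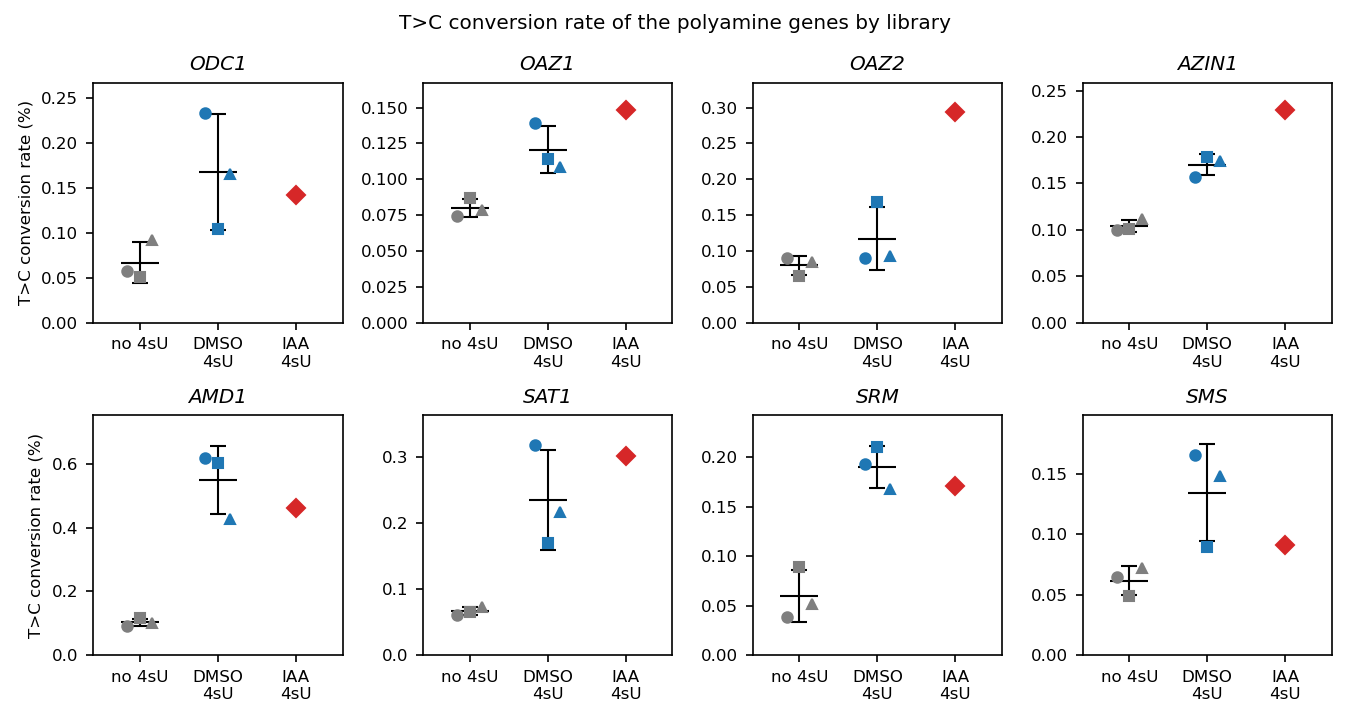
T>C conversion rate (%, linear axis from 0, a scale of its own per gene) of the 8 genes in the libraries without 4sU (grey), with DMSO and 4sU (blue) and in the IAA library (red diamond). Circles, squares and triangles are replicates 1, 2 and 3, horizontal lines are means and bars are SD (n = 3). Labelled AMD1 lies between 0.427% and 0.620%, far above its unlabelled values of 0.0913% to 0.115%, whereas the 3 DMSO values of OAZ2 spread from 0.0900% to 0.168%.

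Among the enzymes of synthesis, ODC1 had rates of 0.0571%, 0.0504% and 0.0925% without 4sU and of 0.234%, 0.104% and 0.166% with DMSO and 4sU. The second labelled library was close to the highest unlabelled one, and the others stood well above it. The log2 difference was 0.87 (SE 0.30, adjusted p = 0.041). This call was lost when any one replicate was left out, with adjusted p-values of 0.19, 0.073 and 0.094 without replicates 1, 2 and 3.

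AMD1 had rates of 0.0913%, 0.115% and 0.100% without 4sU and of 0.620%, 0.603% and 0.427% with it. Its lowest labelled value was above the DMSO values of every other gene of the group. The log2 difference was 1.96 (SE 0.27, adjusted p = 0.0017). AMD1 alone passed under each alternative processing that was tried, with adjusted p-values of 0.00096 to 0.025.

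SRM, which makes spermidine, had rates of 0.0380%, 0.0889% and 0.0520% without 4sU and of 0.193%, 0.210% and 0.168% with it. The labelled values were close to each other and the unlabelled ones varied more. The log2 difference was 1.16 (SE 0.26, adjusted p = 0.0091), with adjusted p-values of 0.058 without replicate 1 and 0.056 without replicate 3. SMS, which makes spermine, had rates of 0.0646%, 0.0485% and 0.0719% without 4sU and of 0.166%, 0.0893% and 0.148% with it. As in ODC1, the second labelled library was the lowest of the 3. SMS differed by 0.70 on the log2 scale (SE 0.25, adjusted p = 0.046). Its adjusted p was 0.17, 0.080 and 0.15 without replicates 1, 2 and 3.

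SAT1, the acetyltransferase that marks spermidine and spermine for export or oxidation, had rates of 0.0608%, 0.0659% and 0.0726% without 4sU. With DMSO and 4sU the rates were 0.318%, 0.169% and 0.217%, so the labelled libraries differed among themselves by more than the unlabelled ones did. The log2 difference was 1.26 (SE 0.27, adjusted p = 0.0081), and without replicate 3 the adjusted p was 0.051.

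Of the antizymes, OAZ1 had rates of 0.0743%, 0.0870% and 0.0785% without 4sU and of 0.139%, 0.114% and 0.109% with it. The groups did not overlap, but the gap between them was small. In limma OAZ1 differed by 0.39 on the log2 scale (SE 0.21, adjusted p = 0.13). OAZ2 had rates of 0.0899%, 0.0652% and 0.0848% without 4sU and of 0.0900%, 0.168% and 0.0931% with it. The first labelled library was within rounding of the highest unlabelled one. OAZ2 differed by 0.33 on the log2 scale (SE 0.26, adjusted p = 0.27), and by 0.043 without replicate 2, which held the highest labelled value, and 0.50 without replicate 1. AZIN1, on chromosome 8, had rates of 0.1000%, 0.100% and 0.111% without 4sU and of 0.157%, 0.178% and 0.174% with it, with little spread in either group. The difference in AZIN1 was 0.51 log2 units (SE 0.22, adjusted p = 0.075).

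In order of the mean rate with DMSO and 4sU, AMD1 was followed by SAT1 (0.235% ± 0.0757), SRM (0.190% ± 0.0212), AZIN1 (0.170% ± 0.0113), ODC1 (0.168% ± 0.0649), SMS (0.134% ± 0.0401), OAZ1 (0.121% ± 0.0164) and OAZ2 (0.117% ± 0.0440; SD, n = 3 each). Only AMD1 was separated from its neighbour, and the ranges of all further neighbours in this order overlapped. After subtraction of the mean unlabelled rate, the gain was 0.448 percentage points for AMD1, more than in 86.1% of the genes tested. SAT1 gained 0.168 points (more than 57.5% of genes), SRM 0.131 (47.2%), ODC1 0.101 (36.8%), SMS 0.0728 (24.9%) and AZIN1 0.0660 (22.2%). OAZ1 gained 0.0407 points (more than 11.6% of genes) and OAZ2 0.0369 (10.4%), while the median gene gained 0.140. By rank among all genes tested the antizymes were thus near the lower end, and AMD1 was above most genes but not among the highest.

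The first DMSO library had the highest rate in ODC1, OAZ1, AMD1, SAT1 and SMS. Its median rate over all genes tested was 0.233%, against 0.176% and 0.175% in the second and the third, and its part in these differences was not tested. In the unlabelled libraries the medians were 0.0543%, 0.0543% and 0.0561%.

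**Figure D2:**
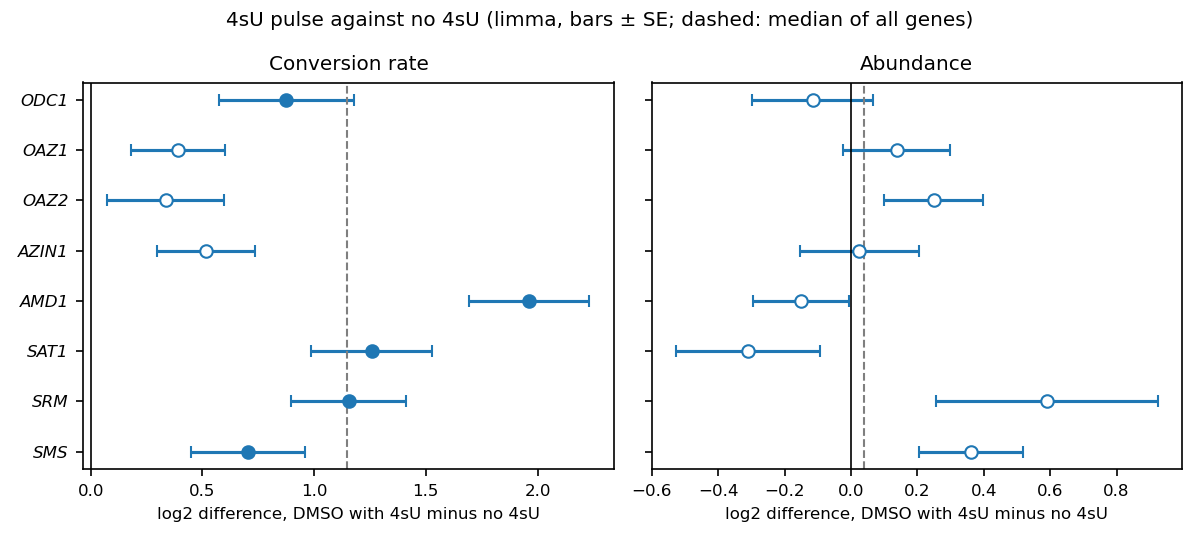
Log2 difference of DMSO with 4sU minus no 4sU for the conversion rate (left) and for the abundance (right), as fitted by limma with bars of 1 SE. Filled circles had an adjusted p under 0.05, open circles did not, the solid line is at 0 and the dashed line is the median of all genes tested (1.15 and 0.04). AMD1, at 1.96, lies to the right of all others on the left, and no gene passed on the right.

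The abundance of the 8 mRNAs was compared in the same 6 libraries. These values are reads scaled to the library, so they compare relative amounts and not amounts per cell. None of the 8 passed, in limma or with edgeR or DESeq2 on the recovered reads, where 0.0% of 11173 genes tested were higher and 1.65% lower with 4sU in limma. At an unadjusted p under 0.05 limma gave 1 of the 8 genes (SMS) and 10.3% of all genes, edgeR 1 (SMS) and 10.6%, and DESeq2 2 (SMS and SRM) and 10.8%. With the replicate number as a block limma gave 3 (SMS, SAT1 and SRM) and 15.6% of all genes, and again none after adjustment. The median log2 difference of the 8 was 0.08, beside 0.04 over all genes tested. CPM were not compared between genes.

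**Figure D3:**
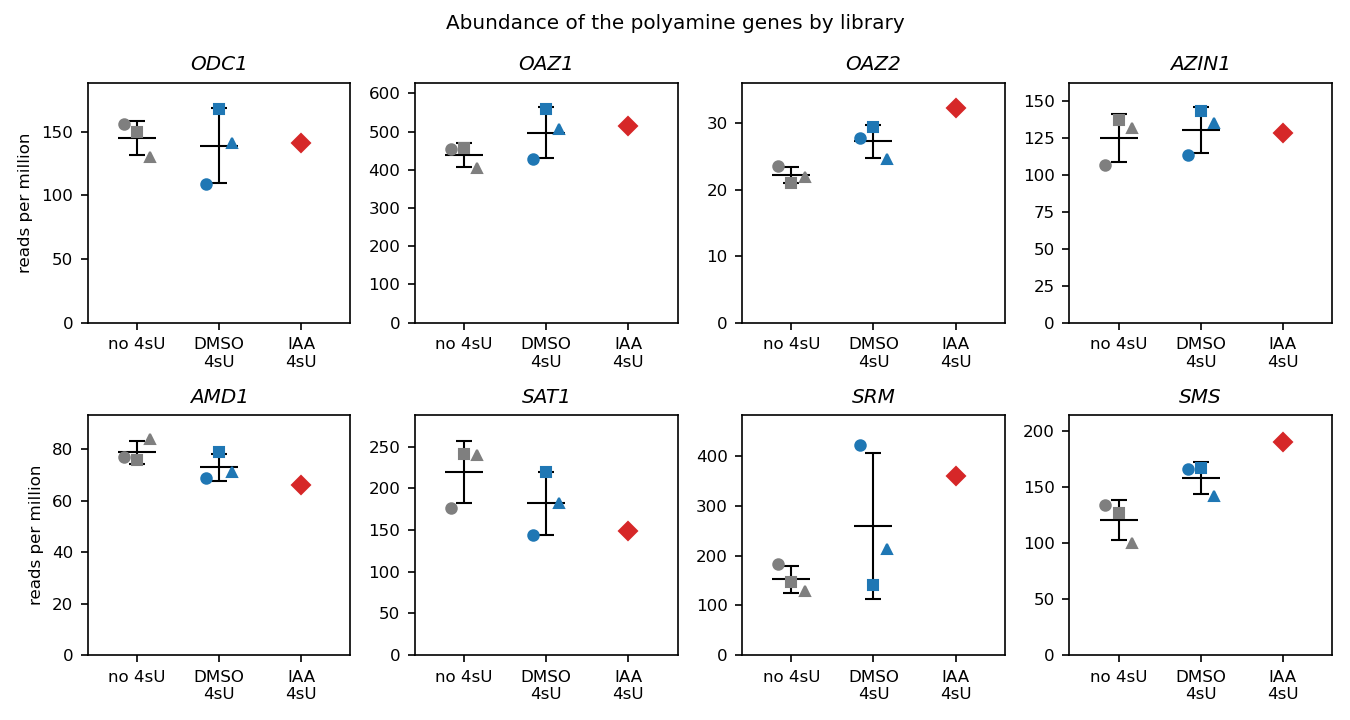
Abundance (CPM, linear axis from 0, a scale of its own per gene) of the 8 genes by library. Colours, symbols, lines and bars are as in the plot of conversion rates (mean and SD, n = 3). SRM spreads from 141 to 424 within the DMSO libraries, whereas the groups of SMS and of OAZ2 do not overlap.

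SRM varied most within a group, with 182, 146 and 129 CPM without 4sU and 424, 141 and 213 with DMSO and 4sU. The first library of each group was the highest of its 3, and the second DMSO library lay among the unlabelled ones. The log2 difference of SRM was 0.59 (SE 0.33, adjusted p = 0.61 in limma, and 0.30 with the replicate number as a block). It was 0.21 without replicate 1 and 0.94 without replicate 2. Taken by replicate number, SRM differed by 1.25, −0.10 and 0.63 on the log2 scale, so the difference did not keep its sign. SMS was at 134, 127 and 100 CPM without 4sU and at 166, 167 and 142 with it. Every labelled value of SMS was above every unlabelled one, with log2 differences of 0.34, 0.33 and 0.41 by replicate number. The fitted log2 difference of SMS was 0.36 (SE 0.16, adjusted p = 0.47, and 0.22 with the replicate number as a block).

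OAZ2 was at 23.5, 21.1 and 22.0 CPM without 4sU and at 27.8, 29.5 and 24.6 with DMSO and 4sU. These groups did not overlap either, and OAZ2 and SMS were the 2 genes of the 8 for which the labelled values were all higher, beside 7.76% of all genes tested. OAZ2 differed by 0.25 on the log2 scale (SE 0.15, adjusted p = 0.64). OAZ1 was at 455, 458 and 404 CPM without 4sU and at 427, 559 and 506 with it, and its groups overlapped. OAZ1 differed by 0.14 on the log2 scale (SE 0.16, adjusted p = 0.83).

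AZIN1 was nearly level, with 106, 137 and 132 CPM without 4sU and 113, 143 and 135 with it. The lowest value of AZIN1 in each group came from replicate 1. Its log2 difference was 0.03 (SE 0.18, adjusted p = 0.98). ODC1 was at 156, 149.6 and 130 CPM without 4sU and at 109, 168 and 141 with it, so the labelled libraries enclosed the unlabelled ones. ODC1 differed by −0.12 on the log2 scale (SE 0.18, adjusted p = 0.88).

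AMD1 was at 76.7, 75.6 and 83.9 CPM without 4sU and at 68.9, 78.9 and 71.0 with DMSO and 4sU. These ranges overlapped, and the log2 difference of AMD1 was −0.15 (SE 0.14, adjusted p = 0.78). SAT1 was at 177, 241 and 240 CPM without 4sU and at 144, 219 and 182 with it. By replicate number the log2 differences of SAT1 were −0.25, −0.20 and −0.48, all below 0, but the groups overlapped. The fitted log2 difference of SAT1 was −0.31 (SE 0.22, adjusted p = 0.69, and 0.29 with the block).

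The second question of the design was whether loss of JUN protein changes the transcripts made during the pulse. The single IAA library was set against the 3 DMSO libraries on the scale of log2(rate + 0.0005), with the median of each library removed, here called centring. A gene was counted as called when it lay at least 1 log2 unit from the DMSO mean and outside the DMSO range, a description without a test. None of the 8 genes was called, where 11.2% of 7166 genes were. After centring 7 of the 8 lay outside the DMSO range, as 49.8% of all genes did, and without it only OAZ1, OAZ2 and AZIN1 did. DMSO is the same group in both comparisons, so they are not independent.

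**Figure D4:**
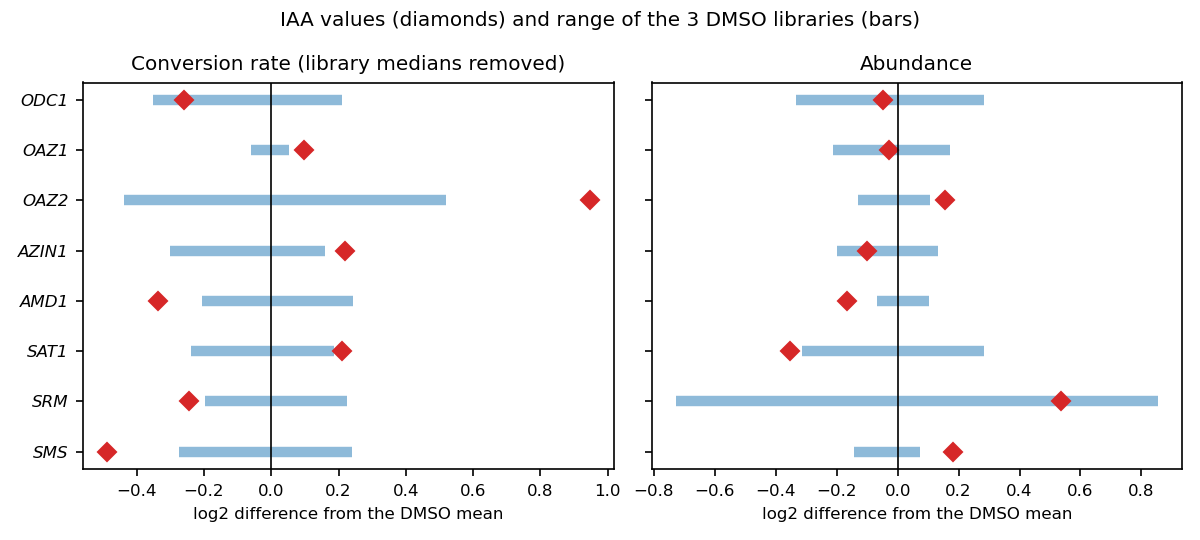
Log2 difference of the IAA library (red diamonds) from the mean of the 3 DMSO libraries for the conversion rate (left, library medians removed) and for the abundance (right). Blue bars span the lowest to the highest of the 3 DMSO libraries, and the vertical line is the DMSO mean. OAZ2, at 0.95, is farthest from 0 in the rate, and SRM in the abundance, at 0.54 and within its wide DMSO range.

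OAZ2 had the largest difference. Its rate was 0.293% with IAA, above the 0.0900%, 0.168% and 0.0931% with DMSO, and the centred log2 difference was 0.95 in a DMSO range of −0.44 to 0.52. The difference was 1.21 without the second DMSO library, which was the highest, and 1.07 without centring, both past 1 log2 unit. It was 0.73 without the first DMSO library. This is the gene with the AP-1 motif in its start region, shown above, and a link between the motif and the value was not tested.

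OAZ1 and AZIN1 also lay above their DMSO ranges. OAZ1 had a rate of 0.149% with IAA and a centred log2 difference of 0.10, just above its narrow DMSO range of −0.06 to 0.05. AZIN1 had a rate of 0.229% with IAA and a centred difference of 0.22, above a range of −0.30 to 0.16. Without the first DMSO library, the lowest for AZIN1, the difference was 0.068, and over the 3 libraries left out in turn it was at most 0.30 for AZIN1 and 0.07 to 0.12 for OAZ1. As deposited, without centring, the rates of these 3 genes were higher in the IAA library than in any DMSO library, by different amounts. After centring SAT1 lay above its range as well, as did 23.9% of all genes. Without centring no share over all genes was computed, but the median log2 difference of all genes was 0.11, above 0 as well. The median rate of the IAA library over the genes tested against unlabelled cells was 0.214%, within the DMSO medians of 0.175% to 0.233%.

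After centring, the enzymes of synthesis lay below the DMSO range (AMD1, SRM and SMS) or within it (ODC1). On that scale 49.8% of all genes lay outside the range, counting both sides, and the 23.9% above it are part of these. ODC1 had a rate of 0.142% with IAA, within its DMSO values, and a centred log2 difference of −0.26 in a range of −0.35 to 0.21. AMD1 had a rate of 0.462% with IAA and a centred difference of −0.34, below a range of −0.21 to 0.24. SRM had 0.170% and a difference of −0.25, below a range of −0.20 to 0.22. Multiplied by CPM and without centring, the SRM rate was higher with IAA by 0.47 on the log2 scale. The median of all genes was 0.26 on that scale. SMS had 0.0910% and a difference of −0.49, below a range of −0.28 to 0.24 and the lowest of the 8. Without centring AMD1, SRM and SMS lay within their DMSO values, SRM and SMS close to the lowest of them. SAT1 had 0.301% and a centred difference of 0.21, above a range of −0.24 to 0.19, although its rate was below the highest DMSO value of 0.318%. With each DMSO library left out in turn, the centred difference was −0.44 to −0.16 for ODC1, −0.44 to −0.21 for AMD1, −0.34 to −0.13 for SRM, −0.62 to −0.37 for SMS and 0.09 to 0.30 for SAT1. These values kept their sign, but SAT1, SRM and AMD1 were nearest to 0 without the second DMSO library.

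In abundance none of the 8 was called either, where 0.216% of 11121 genes were. OAZ2 (32.3 CPM with IAA, log2 difference 0.16) and SMS (190, difference 0.18) lay above their DMSO ranges, as 20.7% of all genes did. AMD1 (66.1, difference −0.17) and SAT1 (149, difference −0.35) lay below theirs on the scaled log2 values. Of all genes 41.5% lay outside the range, counting both sides, and the 20.7% above it are part of these. The SAT1 value of 149 was above the lowest deposited DMSO value of 144, so its place below the range holds for the scaled values and not for the deposited value. Its difference was also −0.35 with the interval with most reads alone, and −0.27 with the deposited scaling. ODC1 (141, difference −0.05), OAZ1 (515, −0.03) and AZIN1 (128, −0.10) were within their ranges, and with the deposited scaling the differences of ODC1 (0.04) and OAZ1 (0.06) were above 0. SRM was at 360, with a difference of 0.54 inside its DMSO range of −0.73 to 0.85. The difference was 0.96 without the first DMSO library and 0.17 without the second.

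Of 25 further genes of polyamine metabolism, for the supply of ornithine and S-adenosylmethionine, salvage of methylthioadenosine, breakdown, hypusine and transport, 15 could be tested for the conversion rate. With 4sU 6 of them were higher and 0 lower in limma, against 61.5% of all genes, and the median log2 difference was 0.76. The largest was SLC3A2, a subunit of amino acid exchangers that has been linked to polyamine export, with 0.0716% ± 0.0153 without and 0.712% ± 0.0990 with DMSO and 4sU (SD, n = 3 each), a log2 difference of 2.65 (SE 0.26, adjusted p = 0.000612). MAT2A, which makes S-adenosylmethionine, the precursor that AMD1 decarboxylates, rose by 2.31 on the log2 scale (SE 0.36, adjusted p = 0.0028). MAT2B, its regulatory subunit, rose by 1.43 (SE 0.29, adjusted p = 0.0067). EIF5A2, which carries hypusine, a residue made from spermidine, rose by 1.93 (SE 0.29, adjusted p = 0.0024). The vesicular polyamine transporter SLC18B1 rose by 1.18 (SE 0.27, adjusted p = 0.010). Among the supply genes for ornithine and arginine 0 of 2 tested passed, and of the S-adenosylmethionine and salvage genes 2 of 6. For hypusine 1 of 3 tested passed and for transport 3 of 4. In abundance 18 of the 25 genes could be tested and 0 passed in limma, where 0.0% of all genes were higher and 1.65% lower. In the IAA library 0 of 16 were called for the rate, where 11.2% of all genes were. For the abundance 0 of 18 were called, where 0.216% of all genes were.

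Across the 7 distinct libraries, the abundance of ODC1 on the log2(CPM + 1) scale was followed most closely by MIR4709 (Pearson r 0.990), ZEB1-AS1 (0.985) and CD9 (0.982) among 11172 genes. CD9, a tetraspanin of the cell surface, was at 87.4, 85.3 and 71.6 CPM without 4sU, at 45.8, 99.9 and 82.9 with DMSO and at 68.3 with IAA, low like ODC1 in the first DMSO library. Within the group, r with ODC1 was 0.68 for SAT1, 0.65 for OAZ1, 0.53 for AMD1, 0.50 for AZIN1, −0.32 for SMS, −0.33 for OAZ2 and −0.90 for SRM. ODC1 was lowest and SRM highest in the same library, the first with DMSO. With 7 points, which share 3 conditions and the scaling of each library, these values are a description. Whether MIR4709 and ZEB1-AS1 share reads with overlapping genes was not tested.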

How the data were processed

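SLAM-Seq libraries were made by the study from MCF10A cells with the QuantSeq 3′ kit. Per the paper's methods the authors used the nf-core/slamseq workflow of Nextflow. Its versions are not given in the sources used here, and the submitters' processing notes list hg19. The deposited table gives, per RefSeq transcript interval, the T>C conversion rate as a fraction, printed here in percent. It also gives a signal labelled CPM by the authors, the reads of an interval scaled to the library total. Transcripts with a common interval each list its reads. The coverage of T positions was not analysed, and no counting error of the rates can be given. Of 56868 rows 97.7% matched a RefSeq gene table (GRCh38.p14, names only). Rows of a gene with equal length and values were used once. In the 20.2% of genes with several intervals the fits used the mean rate and the summed reads, which counts a read of nested intervals more than once. Whole reads were recovered from the deposited signal for 100.0% of its non-zero values (within 0.01 read). Of the per-sample columns 0 were left unused. The 3 IAA columns were counted as 1 library, and which replicate they belong to is not known.

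limma (3.58.1, R 4.3.3; trended and robust variances, Benjamini-Hochberg adjusted p of 0.05) was fitted over all genes. For rates it used log2(rate + 0.0005), with the rate as a fraction, in genes with at least 200 reads on average whose rate exceeded 0 in 3 or more of 6 libraries. For abundance it used log2(CPM + 1) with TMM library sizes, in genes at 1 or more in at least 3 of 6 libraries. Fold changes on these scales understate those of low values. The IAA library was described on the same scales, with at least 2 of 4 libraries. edgeR (4.0.16) and DESeq2 (1.42.0) on recovered reads, other pseudocounts, filters, scalings and intervals, leaving out each replicate and a replicate block were alternatives, and edgeR with the block was added after seeing the data. The fits were run on simulated data with larger changes than those of the 8 genes, so this does not check calls at smaller differences. Deviations from the group mean correlated between libraries of the same number with 0.39, 0.31 and 0.36 in abundance (11173 genes) and 0.0060, −0.013 and 0.0073 in the rates (7170 genes). The numbers were thus taken to pair the libraries in abundance and not in the rates. The main fits had no block, so their SE in abundance leave the pairing out (for SRM 0.33, against 0.24 with the block). The text names all 8 genes and, of the further pathway genes past the threshold, at most 5 in each direction by size. A member of the list of basal markers is not reported here. The genes and lists were chosen with earlier results of these data known. Calculations used Python 3.11.15, pandas 2.3.3 and numpy 2.4.6, and figures matplotlib 3.10.9.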

Additional observations from a re-analysis of the deposited data

How the results depend on the processing

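In the comparison of rates with and without 4sU, 5 of the 8 genes passed with each pseudocount and with the interval with most reads. Without the minimum of reads and with the replicate block 3 passed each, without any filter 1, and leaving out a replicate gave 1 to 3. AMD1 passed in each of these. With the block ODC1 (adjusted p = 0.055) and SMS (0.062) no longer passed, and without the minimum of reads the values were 0.061 and 0.068. Over all genes 4406 were higher, 3959 with the block and 2663 to 3070 without a replicate, the lowest without replicate 1. In abundance 0 of the 8 passed under each alternative. Over all genes the count was 184, against 396 with DESeq2 and 0 without a filter, 24 to 455 without a replicate (455 without replicate 1, 24 without replicate 2 and 27 without replicate 3) and 190 with the replicate block, 189 with edgeR and the block. The block changed no call of the 8 genes in abundance. The sign turned in 3 cases, all near 0: AZIN1 without a filter (−0.0054), and without replicate 1 ODC1 (0.020, with −0.23 to 0.020 over the replicates left out) and AZIN1 (−0.070, with −0.070 to 0.055).

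No paired analysis was possible because the IAA columns hold 1 library, for IAA against DMSO. OAZ2 alone of the 8 was called there under an alternative: without centring (1 gene called, 1.07), with the pseudocount 0.0001 (1, at 1.16), with the rate multiplied by CPM (1, at 1.62) and without the second DMSO library (0 to 1 gene over the 3 left out in turn, 1.21). The count over all genes was 805, with 2435 without the minimum of reads, 525 with the pseudocount 0.001 and 1428 with the rate multiplied by CPM. Of the calls 47.5% were higher, 61.6% without centring, which moved the median of all genes by 0.12, and 68.3% with the rate multiplied by CPM. The rate multiplied by CPM was not centred either, and its median log2 difference over all genes was 0.26. In abundance the count was 24, 49 with the pseudocount 0.5 and 15 to 109 with a DMSO library left out (109 without the first, 15 without the third), with 66.7% higher, 90.3% with the deposited scaling and 81.2% with the interval with most reads. SRM, lower in the centred rate with IAA, was higher when the rate was multiplied by CPM (0.47, beside that median of 0.26). The cause of these changes was not tested.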
